A study of Mus musculus with 2 samples.

Results

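The Dlx genes are the mouse relatives of Distal-less, a homeobox gene of the fruit fly, and all 6 of them were examined: Dlx1 and Dlx2 on chromosome 2, Dlx3 and Dlx4 on chromosome 11, and Dlx5 and Dlx6 on chromosome 6. The members were set by family name, 6 of the 21887 protein-coding genes of the annotation, but the family itself was chosen with its peaks in this list already seen. The peaks counted for them were those within 1 kb of each gene model or between the 2 genes of a pair. The data were a list of 29924 peaks of trimethylated lysine 4 of histone H3 (H3K4me3), a mark of active and poised promoters, measured by chromatin immunoprecipitation and sequencing. The chromatin came from mouse small intestinal enteric neurons sorted for NOS1, the neuronal nitric oxide synthase, and the series held 1 immunoprecipitated library and 1 input library, both from such cells. The sources used here do not give the strain, the age, the number of animals or the way NOS1+ cells were marked for sorting, and the input library entered no comparison. With 1 library there was no replicate, so nothing below is tested and every rank is a description of this list.

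Dlx proteins are transcription factors that bind short AT-rich sites through their homeodomain. The genes stand in pairs that are transcribed towards each other, so that the start sites lie at the outer ends of a pair and the gene tails face a shared stretch of DNA. That shared stretch holds conserved enhancers in the Dlx1/Dlx2 and Dlx5/Dlx6 pairs. In the embryonic forebrain Dlx1, Dlx2, Dlx5 and Dlx6 direct the formation and migration of neurons that release GABA, and in the pharyngeal arches the family sets the identity of the jaw. Dlx3 is known for skin, hair, tooth and bone, and Dlx4 for placenta. Antisense or noncoding transcripts run through all 3 pairs, among them Dlx6os1, also called Evf2, which acts on the Dlx5/Dlx6 enhancers.

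The promoters shown here are those at the Dlx loci that did and did not lie under a peak. They are RefSeq sequences of build GRCm38.p6, whose coordinates are those of mm10, and run from 250 bases before to 50 after a start site, 5′ to 3′ along the transcript. Of the 6 Dlx genes, 2 matched the promoter table, Dlx1 and Dlx2, and 3 noncoding genes of the loci matched as well, Dlx4os, Dlx6os1 and Dlx6os2. Capitals mark each CpG dinucleotide and each TAATTA, a core site of homeodomain proteins.
Dlx1, chr2:71529195-71529494, plus strand: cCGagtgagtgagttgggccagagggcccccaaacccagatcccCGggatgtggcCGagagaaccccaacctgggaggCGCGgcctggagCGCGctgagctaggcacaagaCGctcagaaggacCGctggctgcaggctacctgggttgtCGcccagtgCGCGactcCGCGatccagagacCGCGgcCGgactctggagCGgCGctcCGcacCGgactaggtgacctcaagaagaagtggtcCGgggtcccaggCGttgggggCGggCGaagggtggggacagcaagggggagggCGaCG
Dlx2, chr2:71546705-71547004, minus strand: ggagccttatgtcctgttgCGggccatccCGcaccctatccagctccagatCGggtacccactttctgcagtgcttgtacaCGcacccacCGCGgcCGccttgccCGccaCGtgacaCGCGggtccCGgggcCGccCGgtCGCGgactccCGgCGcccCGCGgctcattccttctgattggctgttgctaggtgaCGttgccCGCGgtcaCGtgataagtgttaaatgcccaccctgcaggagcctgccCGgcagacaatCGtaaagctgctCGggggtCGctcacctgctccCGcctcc
Dlx4os, chr11:95144803-95145102, plus strand: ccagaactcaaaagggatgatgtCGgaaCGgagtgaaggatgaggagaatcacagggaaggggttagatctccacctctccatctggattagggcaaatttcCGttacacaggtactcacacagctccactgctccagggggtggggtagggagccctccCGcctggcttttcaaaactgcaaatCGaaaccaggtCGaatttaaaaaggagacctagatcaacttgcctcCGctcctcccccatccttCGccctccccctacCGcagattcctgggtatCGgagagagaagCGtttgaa
Dlx6os1, chr6:6869484-6869783, minus strand: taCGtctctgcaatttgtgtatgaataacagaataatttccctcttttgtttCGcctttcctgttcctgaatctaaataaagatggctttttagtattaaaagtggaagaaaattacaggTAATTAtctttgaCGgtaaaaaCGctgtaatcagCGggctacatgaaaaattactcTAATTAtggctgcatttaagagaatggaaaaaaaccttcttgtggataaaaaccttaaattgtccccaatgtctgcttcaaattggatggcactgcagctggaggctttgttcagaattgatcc
The first pair of sequences is dense in capitals and lay under peaks. The last is AT-rich and lay under none.

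All 6 Dlx genes carried at least 1 peak, where 67.0% of all protein-coding genes did by the same rule. The family was itself selected on the presence, width and score of peaks already seen in this list, so its count is read only as a description. Together the 3 pairs held 19 peaks that covered 15297 bp. Of these, 13 peaks lay over Dlx1/Dlx2, 3 over Dlx3/Dlx4 and 3 over Dlx6/Dlx5. The peaks covered 61.2% of the Dlx1/Dlx2 span, 5.45% of the Dlx3/Dlx4 span and 5.47% of the Dlx6/Dlx5 span, each taken with 1 kb to each side. The pairs thus fell into 1 that was marked over most of its length and 2 that were marked at single places, which the map of the pairs shows. A peak in sorted cells can stand for a mark on few cells or a weak mark on many, and these cannot be told apart here.

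**Figure D1:**
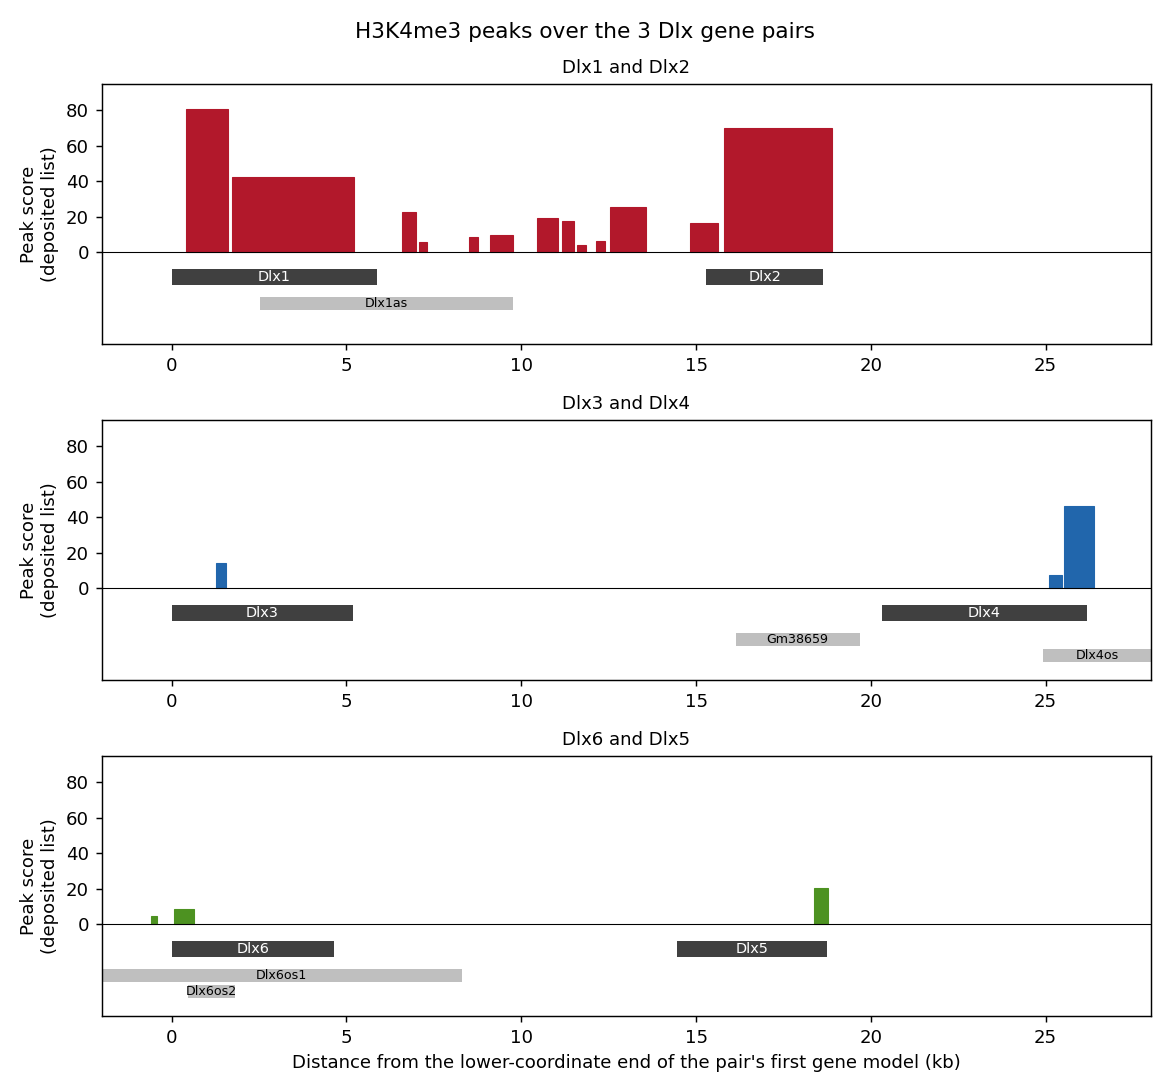
Peaks over the 3 Dlx pairs, drawn by distance in kb from the lower-coordinate end of the first gene model (x) and by the score of the deposited list (y). Each bar is 1 peak as wide as called, dark boxes are the Dlx gene models and grey boxes the noncoding genes that overlap the span, cut at the edges of the plot; 13 peaks fill the Dlx1/Dlx2 span and 3 lie over each of the others.

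Dlx1 (chromosome 2, 71528113 to 71533981) had 3 peaks. The highest-scored, 1214 bp wide with a score of 80.7, spanned 71528524 to 71529737 and held all 300 bases of the promoter printed above, from 921 bases before the start site to 292 after it. The next began 96 bp further on, at 71529834, and ran for 3484 bp with a score of 42.3, ending inside the gene model at 71533317. The last, 380 bp with a score of 22.8, lay in the 1 kb beyond the gene tail. The start site used, 71529445, lies inside the model, and the model's outer end was not covered, since the first peak began 411 bp inside it. The mark at Dlx1 lay over that start site and most of the gene body, 63.1% of the window in all. The wide peak and the one beyond the tail also lie over Dlx1as, an antisense RNA (71530638 to 71537891), and a peak carries no strand, so the genes cannot be told apart there.

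Dlx2 (chromosome 2, 71543408 to 71546754) had 2 peaks. One of 3087 bp with a score of 69.8 ran from 71543909 to 71546995, over nearly the whole model and 241 bp past its start, and held 291 of the 300 promoter bases. The other, 816 bp with a score of 16.2, crossed the tail of the gene. Dlx2 thus had the highest share of its window under peaks of the 6 genes, 73.0%, ahead of Dlx1. By that share Dlx2 ranked 102 and Dlx1 191 of the 21887 protein-coding genes. By the width of the widest peak Dlx1 ranked 493 and Dlx2 809 among the 14665 genes with a peak, and by the highest score they ranked 10914 and 11320. Both genes were thus wide in mark but low in score.

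Between Dlx1 and Dlx2 lay 9426 bp, and 9 peaks stood wholly inside this gap. Their widths were 380, 238, 240, 669, 602, 348, 255, 254 and 1038 bp in order from Dlx1 to Dlx2. Their scores in the same order were 22.8, 5.50, 8.38, 9.48, 19.2, 17.6, 4.14, 6.05 and 25.6. All 9 scored below the peaks at the start sites, and they did not fall steadily from either gene, since 17.6 and 19.2 stood in the row beside lower scores on both sides. The first 4 lay over Dlx1as and the other 5 over no gene model. With the tail peak of Dlx2 that reaches in, 47.7% of the gap was under a peak. The 13 peaks of the locus followed each other at a median distance of 217.5 bp, and 9 of the 12 distances were under 1 kb.

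Among the 5532 gaps of 5 to 20 kb between adjoining protein-coding genes, a setting chosen after these values were seen, 17.4% held a peak wholly inside. The Dlx1/Dlx2 gap held the highest number of peaks of the 5532, ahead of the gap between Nr1d1 and Msl1 with 7, and it was also the most covered, ahead of that between Ctc1 and Aurkb with 46.0%. In gaps of 2 to 50 kb, 1 gap held more peaks and 1 as many, and by covered share the gap ranked 30 of 11632. The scores set a limit on this pattern: among peaks in the upper 50% of scores, which began at 35.7, the gap held 0 peaks. Of the 5532 gaps, 5052 others also held 0 there. With peaks at least 300 bp wide the Dlx1/Dlx2 gap held 5, the highest number of the 5532, and ranked 8 by covered share. With peaks closer than 1 kb merged it held 2, ranking 4 by number with 20 others tied, and 1 by covered share.

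**Figure D2:**
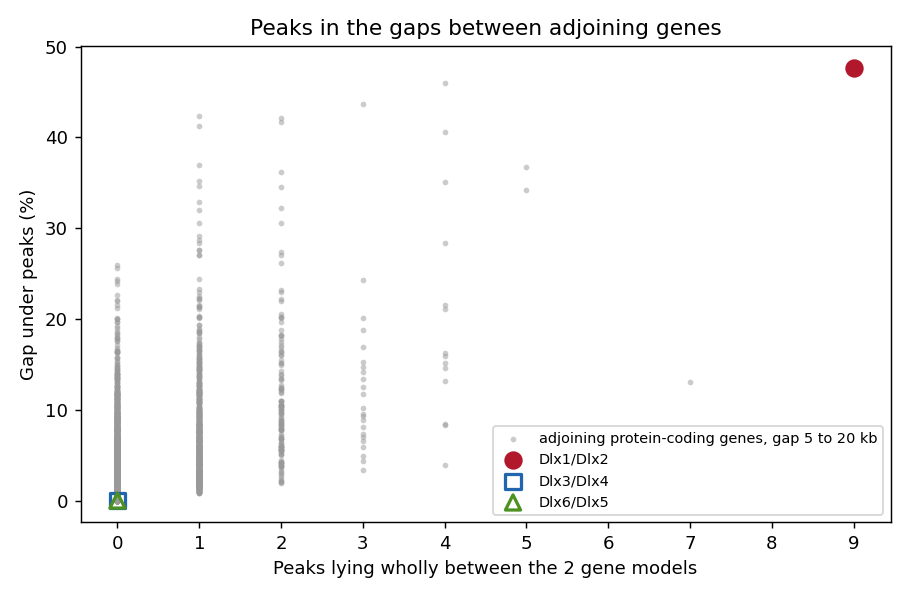
Number of peaks lying wholly between 2 adjoining protein-coding gene models (x) against the percent of the gap under peaks (y). Each grey point is 1 of 5532 gaps of 5 to 20 kb; Dlx1/Dlx2, with 9 peaks and 47.7%, stands at the upper right, and the gaps of Dlx3/Dlx4 and Dlx6/Dlx5 stand at 0 peaks and 0%.

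When peaks closer than 1 kb were merged, the 13 peaks made 4 regions. These were 4794 bp over Dlx1, 703 bp in the gap beyond its tail, 5063 bp in the middle of the gap and 4059 bp over Dlx2. The middle region was the widest of the 4 and was built from 7 narrow peaks, with 67.3% of its length under them. With peaks closer than 1.5 kb merged, a distance chosen after the values were seen, all 13 joined into 1 region of 18472 bp from 71528524 to 71546995, with 68.3% of it under peaks. That region ranked 4 by width among the 19846 regions of the list merged in the same way, whose median width was 1389 bp. This rank rests on the distance chosen, since the largest distance between the 13 peaks was 1394 bp. With the 1 kb distance the 4 regions, in the order given above, ranked 372, 14407, 297 and 697 of 20127 by width.

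Dlx3 (chromosome 11, 95120117 to 95125296) had the least mark of the 6 genes. Its 1 peak, 310 bp with a score of 14.1, began 1258 bp inside the model and covered 4.32% of the window. No peak lay within 1 kb of either end of the model. Dlx4 (chromosome 11, 95140447 to 95146294) had 2 peaks at its outer end. The promoter table gave no start site for Dlx3 or Dlx4, so whether one lay under a peak was not measured. One of 855 bp with a score of 46.5 ran 196 bp past the end of the model. The other, 372 bp with a score of 7.26, lay 63 bp from it, inside the model. Dlx4 was thus the third of the family by width and by score, and the gene of the pair with a peak at the outer end of its model. Both Dlx4 peaks also lie over Dlx4os, a noncoding RNA on the opposite strand, whose start site stood 148 bp from the nearer peak and whose printed promoter had no base under a peak. The 15150 bp between Dlx3 and Dlx4, which hold the noncoding gene Gm38659, had 0 peaks.

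Dlx5 (chromosome 6, 6877801 to 6882068) had 1 peak, 412 bp wide at a score of 20.2, which crossed the outer end of the model by 38 bp and covered 6.57% of the window. Dlx6 (chromosome 6, 6863334 to 6867970) had 2 peaks at its outer end. A peak of 567 bp, scored 8.23, began 76 bp inside the model, and another of 156 bp, scored 4.57, ended 421 bp before it. The highest score of Dlx6 was the lowest of the 6 genes. All of this pair's mark lay at the outer ends, and the 9830 bp between the genes held 0 peaks, whereas the Dlx1/Dlx2 gap of nearly the same length held 9. The peak inside Dlx6 also lies over Dlx6os1 and Dlx6os2. Neither start site of Dlx6os1 in the promoter table was near a peak: the nearest peak stood 1075 bp from one and 5557 bp from the other, whose sequence is printed above. The start site of Dlx6os2 stood 1174 bp from a peak.

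In order of the widest peak the genes ran Dlx1, Dlx2, Dlx4, Dlx6, Dlx5 and Dlx3, from 3484 to 310 bp. In order of the highest score they ran Dlx1, Dlx2, Dlx4, Dlx5, Dlx3 and Dlx6, from 80.7 to 8.23. The place of Dlx6 thus depended on the measure. With no replicate there is no spread to say which neighbours in these orders differ. The median over the 6 genes was 711 bp for the widest peak and 33.3 for the highest score, against 1515 bp and 152.6 over all protein-coding genes with a peak. Among peaks in the upper 50% of scores 3 of the 6 genes, Dlx1, Dlx2 and Dlx4, had a peak, where 57.8% of all genes did. In the upper 25% none of the 6 had one, where 37.3% of all genes did.

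The scores of the Dlx peaks were also read beside their widths. Each Dlx peak was set beside all peaks of the list within 10% of its width, a comparison chosen after the values were seen. Of the 19 peaks, 14 scored below the median of their like and 9 below the lower quartile. Of these 19, 13 stood at the 1 locus of Dlx1/Dlx2, and the family was selected on the width and score of its peaks. The 14 and the 9 are thus read only as a description. The 3484 bp peak of Dlx1, at 42.3, compared with a median of 163.8 over 394 peaks, of which 1.02% scored lower. The 3087 bp peak of Dlx2, at 69.8, compared with a median of 160.9 over 589 peaks, of which 7.30% scored lower. The 855 bp peak of Dlx4 stood nearer to the middle, with 40.2% of its like below it. The Dlx3 peak and the Dlx5 peak stood above the middle, with 74.5% and 63.1% below. The deposited score has no stated scale, so it is read only as a rank within the list.

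The promoters at the Dlx loci were read for CpG dinucleotides, which are dense at most promoters that carry H3K4me3. The Dlx1 promoter held 27 and the Dlx2 promoter 29 in 300 bases, against a median of 22 for promoters under a peak and 3 for promoters under none. Of the 2216 promoters with 25 to 29 CpG, 95.8% lay under a peak, so the 2 Dlx promoters did as nearly all of their kind. Over all 32851 promoters the share was 44.6%. The Dlx4os promoter held 11 CpG and that of Dlx6os2 held 10, in a range of 10 to 14 where 67.2% lay under a peak. The Dlx6os1 promoters held 3 and 5 CpG, in ranges where 3.87% and 24.04% lay under one. All 4 noncoding promoters lay under no peak.

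**Figure D3:**
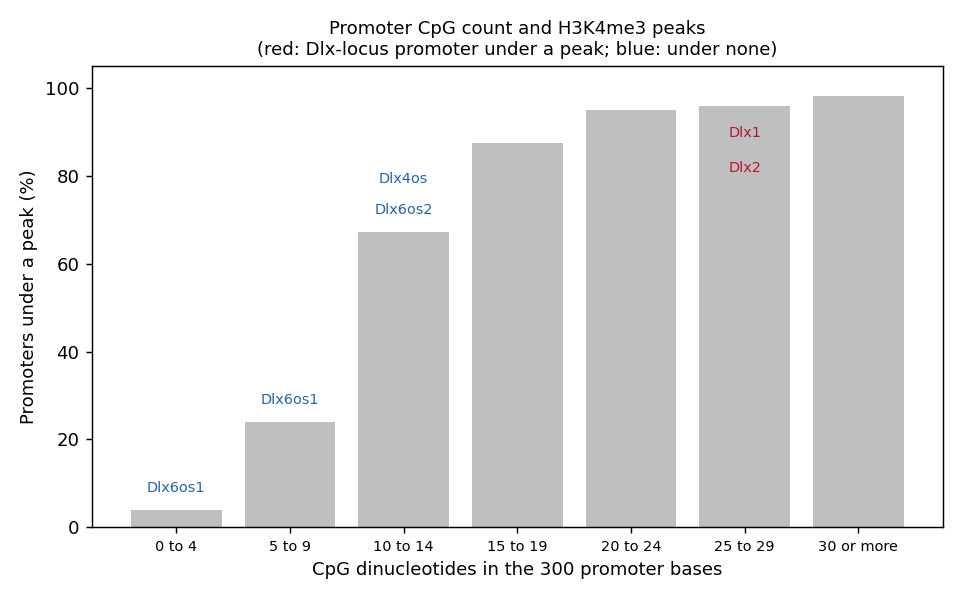
Percent of RefSeq promoters with at least 1 base under a peak (y), by the number of CpG dinucleotides in their 300 bases (x). Bars are all 32851 promoters and names mark the bar to which each Dlx-locus promoter belongs, with no value of their own; Dlx1 and Dlx2, under peaks, fall in the range of 25 to 29 CpG with 95.8%, and the 4 noncoding promoters, under none, fall in the lower ranges.

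Short motifs were searched on both strands of these promoters. TAATTA was found 2 times in the printed Dlx6os1 promoter, 130 and 74 bases before the start site, and 1 time in the other Dlx6os1 promoter, and 5.29% of all promoters held it. GGCGGG, the GC box, was found 1 time in the Dlx1 promoter, 11 bases after the start site, and 2 times in the Dlx2 promoter. It was held by 35.3% of all promoters and by 66.0% of promoters under a peak. It was also found 1 time in the Dlx4os promoter. CCAAT was found 1 time in the Dlx2 promoter, 74 bases before the start site, and 2 times in the printed Dlx6os1 promoter, and 37.4% of all promoters held it. TATAAA was found 2 times in the other Dlx6os1 promoter only, and 13.6% of all promoters held it. No match overlapped another. Among these promoters TAATTA and TATAAA were thus found only at Dlx6os1 and GGCGGG only at Dlx1, Dlx2 and Dlx4os, while CCAAT was found at both Dlx2 and Dlx6os1, which describes their letters and not their use.

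The homeobox genes most closely related to Dlx form the NKL class, in which Msx, Emx, Tlx, Hmx and Nkx genes pattern the head, brain, gut and skeleton. Of 41 other members, 29 had a peak (70.7%, against the background of 67.0%), with a median widest peak of 715 bp and a median highest score of 17.9. The family thus had a median width close to that of its class and, like it, far under that of all genes with a peak. The widest peaks of the class were those of Nkx2-3 (4771 bp), a gene of gut mesoderm, Hlx (3721 bp), Hmx3 (2501 bp), Tlx2 (1903 bp), a gene of enteric neurons, and En2 (1756 bp). Dlx1 and Dlx2 both stood between Hlx and Hmx3, with 2 of the 29 wider and 1, Hlx at 106.3, higher in score. The highest scores of Nkx2-3, Hmx3 and Tlx2 were 38.4, 26.4 and 17.9. A wide peak with a low score was thus not particular to Dlx1 and Dlx2. Dlx4 stood between Nkx6-2 (907 bp) and Vax2 (1017 bp) on the wider side and Barx2 (791 bp) and Nkx6-1 (719 bp) on the narrower.

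Dlx6 at 567 bp lay just under Emx1 (570 bp) and En1 (589 bp) and above Msx2 (455 bp) and Nkx2-9 (405 bp). Dlx5 at 412 bp lay between Msx2 and Emx1 above and Nkx2-9 and Nkx1-1 (351 bp) below. Dlx3 at 310 bp lay between Dbx2 (314 bp) and Nkx1-1 above and Hmx1 (298 bp) and Lbx1 (291 bp) below. The 4 genes of these pairs thus sat among the middle and narrow members of the class. In the upper 50% of scores 5 of the 41 had a peak, where 57.8% of all genes did, and in the upper 25% none did, where 37.3% of all genes did.

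**Figure D4:**
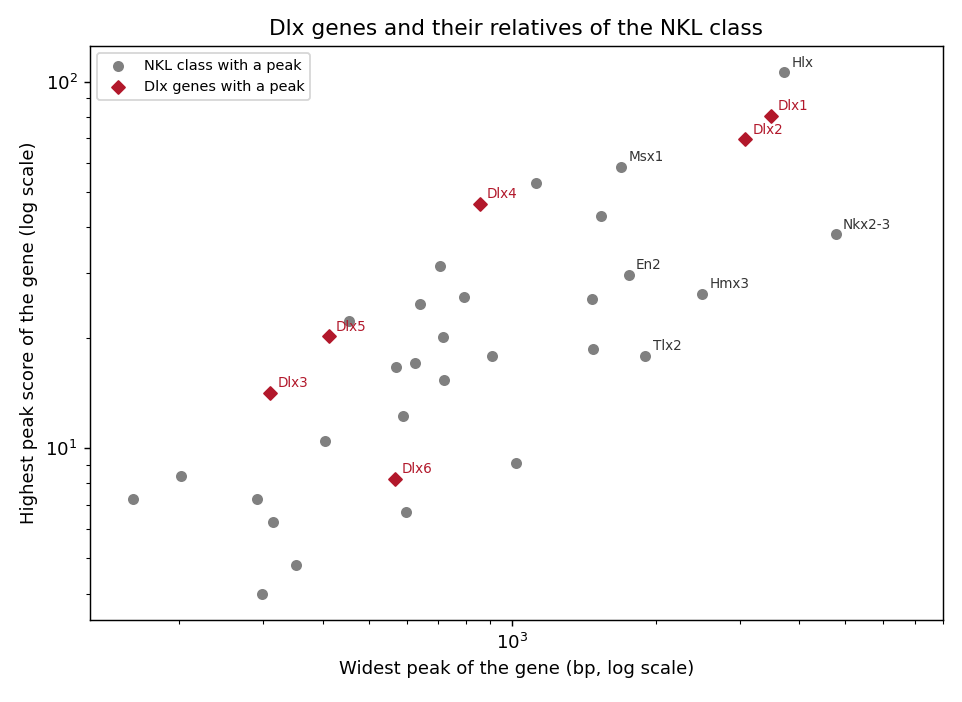
Widest peak (x, bp) and highest peak score (y) of each gene with a peak, both on log scales. Red diamonds are the 6 Dlx genes and grey points 29 genes of the NKL class, the widest named; Dlx1 and Dlx2 lie at the upper right beside Hlx, and Dlx3, Dlx5 and Dlx6 lie among the narrower genes.

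Other homeobox genes also stand side by side, and 8 such pairs were measured in the same way. Their spans held 2 to 7 peaks (median 4) and were covered to between 0.283% and 23.0% (median 1.29%), against 61.2% at Dlx1/Dlx2. The most covered was Hmx3/Hmx2 with 7 peaks, a highest score of 26.4 and 0 peaks in its gap of 2729 bp. Nkx2-4/Nkx2-2 had 7 peaks and 3.55%, and Six3/Six2 had 4 peaks and 1.68%. Dlx3/Dlx4 and Dlx6/Dlx5 ranked 5 and 4 of the 11 pairs by covered share. The pair Irx3/Irx5 had 6 peaks, 3 of them wholly in its gap, and a highest score of 129.1. Irx1/Irx2 had 3 peaks, Tlx1/Lbx1 3 and Nkx2-1/Nkx2-9 2. In these 8 pairs only Hmx3/Hmx2 had a gap shorter than the Dlx gaps, and the other gaps ran from 36544 to 660706 bp, so covered shares compare spans of unlike length.

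For spans of like length, all adjoining protein-coding pairs with a gap of 5 to 20 kb and a span of 15 to 35 kb were taken, a setting chosen after the values were seen. Of these 1546 pairs, Dlx1/Dlx2 had the highest number of peaks and the highest covered share, the latter ahead of Borcs6/Tmem107 with 53.7%. Dlx6/Dlx5 ranked 551 and Dlx3/Dlx4 553 by covered share. The median pair had 0 peaks.

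The nearest peaks outside the Dlx spans were also read. The usual distance between peaks of the list was not measured, so these distances are not called long or short. The nearest peak outside the Dlx1/Dlx2 span lay 74134 bp away on the lower side, at Metap1d, and 34083 bp away on the upper side, over no gene. Around Dlx3/Dlx4 the nearest were 390 bp wide, scored 7.63, at 14347 bp and 153 bp wide, scored 2.39, at 64362 bp. Around Dlx6/Dlx5 they lay 284254 bp away at Sem1 and 73312 bp away at Sdhaf3. No peak thus stood just outside the 1 kb limit. The only peak lying wholly in the outer 1 kb of a pair was the 156 bp peak beside Dlx6. Peaks of Dlx2, Dlx4 and Dlx5 reached into the outer 1 kb by 241, 196 and 38 bp. Of the 18 nearest protein-coding genes, 3 to each side of each pair, 16 had a peak, where 67.0% of all protein-coding genes did. The highest scores of these 16 ran from 43.1 to 216.5, with a median of 165.3. Tac4 and Tac1, which encode tachykinin peptides, had no peak. Hat1 and Pdk1 beside Dlx1/Dlx2, Pdk2, Kat7 and Itga3 beside Dlx3/Dlx4, and Asns and Slc25a13 beside Dlx6/Dlx5 all had one, at scores of 190.5, 212.2, 211.5, 216.5, 102.3, 125.0 and 63.4. Of the 16, only Rapgef4 at 43.1, Slc25a13 at 63.4 and Dync1i1 at 72.2 scored lower than the 80.7 of Dlx1.

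Genes known to act before Dlx genes in the forebrain or the pharyngeal arches were marked in 13 of 18 cases (72.2%, against 67.0%). Among the widest peaks were those of Meis1 (8526 bp), Meis2 (7438 bp), Bmp4 (4140 bp) and Mef2c (3203 bp). Meis proteins are homeodomain cofactors, Bmp4 is a secreted signal and Mef2c acts after endothelin in the jaw. Among the 5 genes without a peak were Gsx2, Sp9, Otx2 and Nkx2-1, which encode regulators of the forebrain. In the upper 50% of scores 8 of the 18 kept a peak, where 57.8% of all genes did, and in the upper 25% none did, where 37.3% of all genes did.

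Genes known to act after Dlx genes fell into those of GABA neurons and those of jaw and bone. Of the 26 GABA neuron genes, 20 had a peak (76.9%, against 67.0%), and the widest were at Zeb2 (6693 bp), Nrp2 (5282 bp), Nrp1 (5120 bp), Maf (3604 bp) and Erbb4 (3004 bp), genes of migration and interneuron fate that other cells use as well. Gad1 and Gad2, which make GABA, had 1 peak each, 489 bp wide at a score of 11.9 and 522 bp wide at 9.48. Slc32a1, the vesicular GABA transporter, had none, and neither had Lhx8, Npas1, Sst or Calb2. Lhx6, an interneuron regulator downstream of Dlx genes, had narrow peaks, at most 551 bp wide. Gad1, Gad2 and Slc32a1 thus had narrow, low-scored peaks or none, beside the wide ones of Dlx1 and Dlx2.

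Of the 16 jaw and bone genes 12 had a peak (75%, against 67.0%), among them Hand2 (8107 bp), a regulator of the lower jaw and of enteric neurons, Hand1 (3176 bp), Runx2 (2713 bp) and Sp7 (1714 bp). Barx1, Ibsp and Bglap were among those with none. Both target lists together held 42 genes, of which 32 had a peak (76.2%, against 67.0%). In the upper 50% of scores 18 of the 42 had one, where 57.8% of all genes did, and in the upper 25% 6 had one, where 37.3% of all genes did. Across the 4 lists 5 genes stood in more than 1: Barx1, Msx1, Msx2, Nkx2-1 and Vax1.

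Markers of the sorted cells and of others were read by the same rule, by which 67.0% of all protein-coding genes had a peak. All 6 general neuron markers had a peak (widest peaks of 379 to 6581 bp, highest scores of 11.6 to 104.8). Of the 4 nitrergic markers, Etv1 (4843 bp, 146.8), Gfra1 (4657 bp, 120.9) and Nos1 (183 bp, 13.0) had one, and Vip had none. All 4 glial markers (widest peaks of 912 to 6775 bp, highest scores of 26.9 to 102.2) and all 4 smooth muscle markers (580 to 1503 bp, 15.4 to 32.6) also had peaks, as did 3 of 4 epithelial (513 to 981 bp, 19.8 to 32.9), 1 of 4 leukocyte and 1 of 3 forebrain markers. Vil1, Cd3e, Itgam and Neurod6 were among the markers with none. Neuron, nitrergic, glial, smooth muscle and epithelial markers thus all carried scores that overlapped those of the Dlx genes. Emx1, the forebrain marker with a peak, scored 16.6, also within the Dlx range. The part of other cells in the Dlx peaks was not tested.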

How the data were processed

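The deposited peak list of the H3K4me3 library holds positions and 1 score per peak, used here as deposited. MACS2 peaks and a paired-end library are named, per the file headers. BWA, Picard, MACS2 and mm10 stand in the submitters' processing notes with neither role nor version. The sources used here do not give the threshold or the scale of the deposited score. The list holds no read counts, so depth is unknown, no counting interval was computed, and peaks may be missed or split where depth is low.

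Gene models, promoters and symbols came from RefSeq tables of GRCm38.p6. A gene had a peak where at least 1 bp of a peak lay over its model with 1 kb to each side. Work was done in Python 3.11.15 with pandas 2.3.3 and tested on simulated peaks. The members and lists were chosen with earlier results of these data known. Named were all Dlx genes, all models and neighbours at their loci, the 8 other homeobox pairs, the 5 widest of each list, the upstream and GABA neuron genes without a peak, and the nearest NKL genes by width; Gad1, Gad2, Lhx6, the top gaps and spans, Barx1, Ibsp, Bglap and the markers named were chosen after their values were seen. A few genes of the lists and 1 homeobox pair are counted but not reported here by name. Alternatives were other flanks, overlaps, score floors, a width floor and merging.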

Additional observations from a re-analysis of the deposited data

How the results depend on the processing

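No paired analysis was possible because there was 1 H3K4me3 library, and leaving out a replicate was likewise not possible. Of 111 recomputed values 69 stayed as they were, or within 1.5 times for a count, and 42 moved; with an overlap of at least 100 bp none of 16 moved. The 6 Dlx genes with a peak became 3 in the upper 50% of scores and 0 in the upper 25%. Peak numbers over Dlx1/Dlx2, Dlx3/Dlx4 and Dlx6/Dlx5 became 3, 1 and 0 in that 50% and 0, 0 and 0 in that 25%, and the first became 4 with peaks closer than 1 kb merged. Covered shares of the 3 pairs, in the same order, were 66.4%, 5.12% and 5.02% with no flank, 53.4%, 4.93% and 4.78% with 2500 bp, 37.7%, 3.03% and 0% in the 50%, 0%, 0% and 0% in the 25%, and 70.8%, 5.68% and 7.87% with merging. With peaks at least 300 bp wide the first was 56.4% and the last 4.72%. Merging widened the widest region to 4794 bp at Dlx1, 4059 bp at Dlx2, 1290 bp at Dlx4 and 1219 bp at Dlx6. The NKL, upstream and target counts became 5, 8 and 18 in the 50%, and 0, 0 and 6 in the 25%. In alternatives chosen after seeing the data, the Dlx1/Dlx2 gap held 0 peaks and 0% in the 50%, 5 peaks and 37.2% with peaks at least 300 bp wide, and 2 peaks and 66.2% with merging. Where a Dlx gene had no peak left, in the 2 score floors, it gave no width. Dlx1/Dlx2 stayed the most covered of the 3 pairs in each setting but the 25%, where all were at 0%. Score floors remove these peaks because the highest Dlx score was 80.7 and the 25% began at 140.8. The unknown depth limits all of these values.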
